A study of Mus musculus with 12 samples.

Results

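The core circadian clock genes described here are *Arntl*, *Clock*, *Per1*, *Per2*, *Per3*, *Cry1*, *Cry2*, *Nr1d1*, *Nr1d2* and *Dbp*, 10 of the 55487 genes in the count table. They were chosen by name, with gene identifiers mapped to symbols, and all 10 were among the 16233 genes with enough counts to be tested. The measurements are poly-A RNA-seq of whole retina from 5xFAD mice of strain Tg6799 and from WT mice of strain C57BL/6J, with 3 libraries for each of 4 groups: 5xFAD at 6 months, WT at 6 months, 5xFAD at 1 month and WT at 1 month. The 5xFAD line is a mouse model of Alzheimer's disease that carries human transgenes with familial mutations under the neuronal *Thy1* promoter. The labels name no treatment. They do not say whether replicates came from separate animals, so the p-values measure only the spread between these libraries, which may be technical. They also give neither the time of day at which retinas were taken nor the lighting schedule, so time of day and the groups cannot be told apart.

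The mammalian clock is a delayed feedback loop. BMAL1, the product of *Arntl*, pairs with CLOCK and switches on *Per*, *Cry*, *Nr1d1*, *Nr1d2* and *Dbp* through E-box sequences, and the PER and CRY proteins later return to the nucleus and block that pair. A second loop joins the nuclear receptors REV-ERB alpha and beta, made by *Nr1d1* and *Nr1d2*, which repress *Arntl* by competing with the ROR receptors for the same sites, and DBP activates genes that carry D-box sequences. The retina holds its own clock, which times processes such as melatonin and dopamine release and photoreceptor coupling, and *Arntl* RNA runs opposite in phase to *Nr1d1* and *Dbp* RNA.

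To show the motifs of the loop in sequence, 4 promoter stretches were chosen because they hold them. They are RefSeq sequence on GRCm38.p6, from the 250 bases before each listed start, in lower case and 5′ to 3′ on the gene's strand. Capitals mark the E-box CACGTG bound by the CLOCK and BMAL1 pair, its variant CACGTT, the half-site AGGTCA read by ROR and REV-ERB receptors, and the D-box TTATGTAA read by DBP, each on either strand. No match overlaps another.
*Per3*, chr4:151044796-151044890, minus strand, with a pair of D-boxes: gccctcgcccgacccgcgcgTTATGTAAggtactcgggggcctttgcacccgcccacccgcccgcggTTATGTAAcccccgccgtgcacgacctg
*Nr1d2*, chr14:18239158-18239203, minus strand, with the half-site: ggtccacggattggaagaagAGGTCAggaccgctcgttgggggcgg
*Cry1*, chr10:85185089-85185153, minus strand, with the variant on the opposite strand and the E-box: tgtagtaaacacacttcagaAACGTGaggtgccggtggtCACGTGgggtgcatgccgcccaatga
*Per1*, chr11:69098763-69098837, plus strand, with the E-box and the half-site on the opposite strand: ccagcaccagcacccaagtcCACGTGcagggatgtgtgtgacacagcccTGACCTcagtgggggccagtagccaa

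A promoter was listed for 9 of the 10 genes, 13 promoters in all, and 7 of the 13 held at least 1 of these motifs. The 2 D-boxes of *Per3* began 205 and 158 bases before its start, and a D-box stood in 0.819% of 32851 mouse promoters of the same length. *Per1* and *Cry1* held the E-box, found in 6.02% of promoters, beginning 166 and 60 bases before their starts. The variant was present in *Cry1*, *Cry2* and *Nr1d1*, against 3.85% of all promoters. The half-site was present in *Nr1d2*, *Per1* and the third listed promoter of *Clock*, against 14% of all promoters. No motif was found in either listed promoter of *Arntl*, in that of *Dbp*, in the first and second of *Clock* or in the second of *Per1*. *Nr1d1* and *Nr1d2* held no CACGTG. A match is a description of these letters and not of binding, and no match says only that they are not in this window.

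The clock genes were well measured in every library. Libraries held 11951787 to 14137974 expected counts in 5xFAD and 14693701 to 19552537 in WT retinas at 6 months, and 10928031 to 11682111 in 5xFAD and 11291264 to 11699790 in WT retinas at 1 month. Each clock gene had between 336 and 4870 counts per library. Levels are given as CPM, counts brought to a common library size, after TMM scaling. Levels of different genes are compared only in TPM, which also divides by transcript length. Over all 12 libraries *Dbp* was the most abundant at 174 ± 46.9 TPM (SD, n = 12), with *Nr1d1* at 159 ± 22.7 TPM and *Nr1d2* at 159 ± 16.7 TPM. *Arntl* averaged 93.7 ± 9.32 TPM, *Per3* 67.9 ± 9.44 TPM, *Cry2* 65.4 ± 14.1 TPM, *Per1* 45.9 ± 9.99 TPM, *Clock* 40.2 ± 13.4 TPM and *Cry1* 38.1 ± 6.05 TPM. *Per2* was the lowest at 15.9 ± 1.82 TPM. Ranks within the top 3, within *Per3* and *Cry2*, and within *Per1*, *Clock* and *Cry1* were not separated beyond this spread. The spread over 12 libraries also holds the differences between groups. At 1 month *Dbp* averaged 154 TPM and *Nr1d1* 177 TPM in 5xFAD, against 232 and 161 TPM in WT.

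The libraries differed in composition. The mean length of the transcript behind a count was 3674 ± 50.5 nt in 5xFAD and 3911 ± 182 nt in WT retinas at 6 months, and 4214 ± 16.8 nt in 5xFAD and 3719 ± 121 nt in WT retinas at 1 month (SD, n = 3 each). At 6 months the WT libraries stood at 4013, 4019 and 3700 nt. Nuclear ribosomal RNA took 1.11, 0.446 and 0.0525% of the counts in the 5xFAD libraries at 6 months, against 0.028 to 0.0612% in WT, and 0.0722 to 0.149% in 5xFAD against 0.092 to 0.325% in WT at 1 month. The fold changes of genes were therefore also computed after taking out each library's own dependence on length and GC content (here called the length and GC trend). They were also computed without the 3 libraries richest in nuclear ribosomal RNA (5xFAD replicates 1 and 2 at 6 months and WT replicate 2 at 1 month). Transcript results, TPM levels, marker sums and the descriptions of phase and likeness were not recomputed with the trend removed. Without those 3, 1 library of 5xFAD at 6 months is left, assumed to vary like the other groups. Values from that fit that use 5xFAD at 6 months are therefore not group results.

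Genes were called at an adjusted p below 0.05 from edgeR's quasi-likelihood test with Benjamini-Hochberg adjustment over all genes tested. Between 5xFAD and WT at 6 months, 2 of the 10 clock genes were called, *Nr1d2* higher and *Per1* lower, where 6.38% of all genes tested were called, 2.48% higher and 3.89% lower. At 1 month 4 of 10 were called, *Clock* higher and *Per2*, *Nr1d2* and *Dbp* lower, where 19.6% of all genes were called, 10.7% higher and 8.91% lower. The median log2 fold change of the 10 genes was 0.01 at 6 months and -0.053 at 1 month, beside 0.003 and -0.045 over all genes. In the age comparison of 6 with 1 month, 4 clock genes were called in 5xFAD retinas, *Per2* and *Nr1d2* higher and *Clock* and *Cry2* lower, where 23.2% of all genes were called, 10.8% higher and 12.4% lower. In WT retinas 2 were called, *Per3* and *Nr1d2*, both lower, where 10.5% of all genes were called, 6.01% higher and 4.49% lower. With edgeR 7 of the 10 had an unadjusted p below 0.05 in that WT comparison, and DESeq2 called 4. The genotype difference changed between the ages (difference at 6 months minus difference at 1 month) for 6 clock genes, *Per2*, *Nr1d2* and *Dbp* higher and *Clock*, *Per1* and *Cry2* lower, where 25.0% of all genes were called, 11.7% higher and 13.3% lower. These comparisons share libraries, those of 5xFAD at 1 month entering 3 of them, so their signs are not independent of each other.

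**Figure D1:**
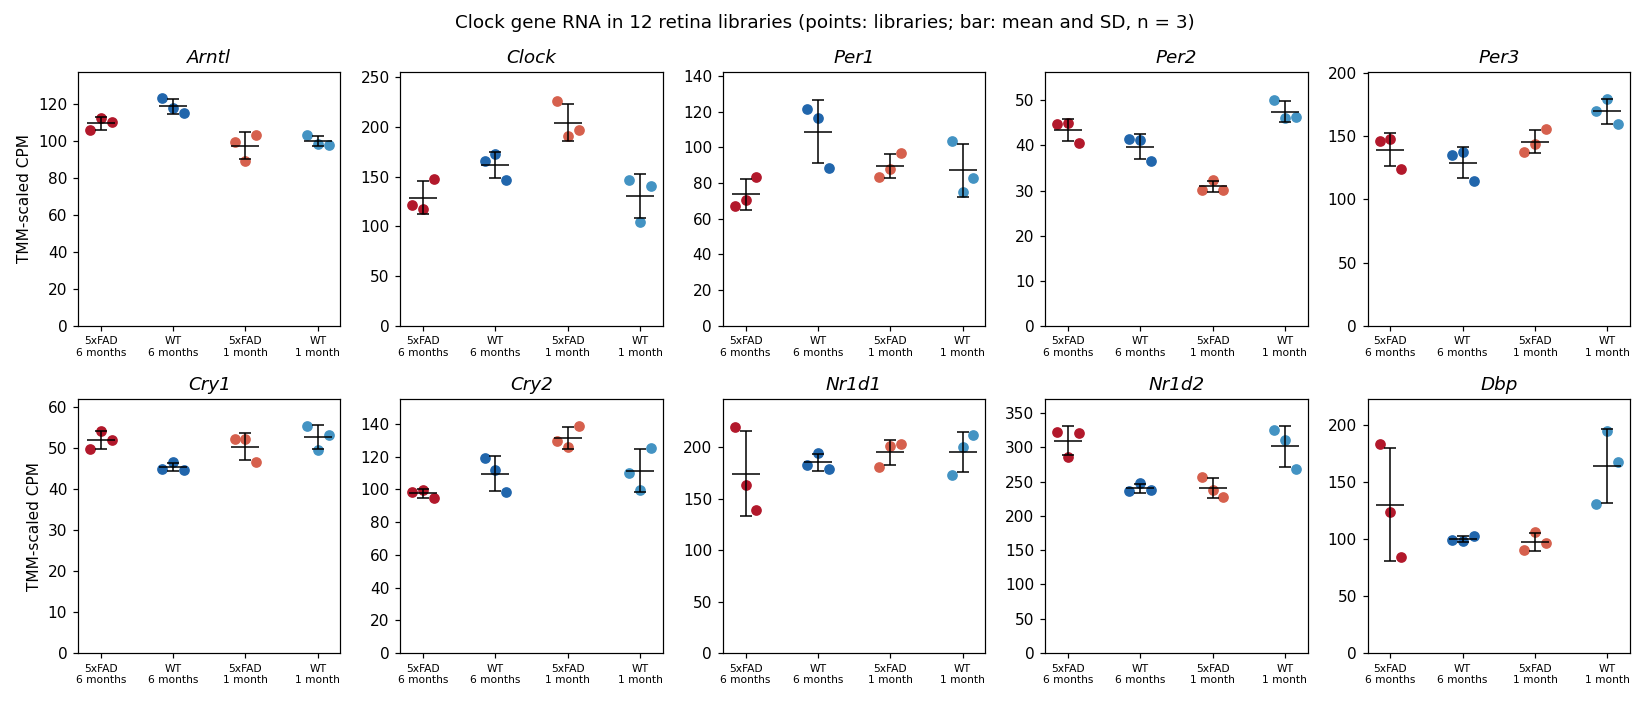
TMM-scaled CPM of each clock gene (vertical axes, from 0) in the 3 libraries of each group, with the group mean and SD as bars. *Per2* sits lowest and *Clock* highest in 5xFAD retinas at 1 month, *Nr1d2* is high in 5xFAD at 6 months and WT at 1 month, and *Dbp* ranges from 84.2 to 183 CPM within 5xFAD at 6 months.

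In the positive arm of the loop, *Clock* differed with genotype at 1 month and *Arntl* was called in no comparison of the fit reported. *Arntl* (chromosome 7, 113207465 to 113314126, plus strand) had 106, 112 and 110 CPM in 5xFAD retinas and 123, 118 and 115 CPM in WT retinas at 6 months. The 1-month values were 99.3, 89.3 and 103 CPM in 5xFAD and 103, 98.5 and 97.9 CPM in WT retinas. The 5xFAD values lay below all WT values at 6 months and overlapped them at 1 month, and in both genotypes each 6-month value lay above each 1-month value. The log2 fold change was -0.12 ± 0.09 (SE) at 6 months (adjusted p = 0.521), -0.04 ± 0.09 at 1 month (adjusted p = 0.82), 0.17 ± 0.09 from age in 5xFAD (adjusted p = 0.205) and 0.25 ± 0.09 from age in WT (adjusted p = 0.0881). With the length and GC trend removed, the age difference in WT was called at the same size of 0.25 (adjusted p = 0.0396), and it was called with DESeq2's Wald test (adjusted p = 0.0365).

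*Clock* (chromosome 5, 76209868 to 76304792, minus strand) encodes the histone acetyltransferase partner of BMAL1 and has the longest transcripts of the 10, averaging 9175 nt. It had 121, 118 and 148 CPM in 5xFAD and 166, 172 and 147 CPM in WT retinas at 6 months, where the groups overlapped by 1 library each. At 1 month it had 226, 191 and 196 CPM in 5xFAD retinas, all above the 146, 105 and 140 CPM in WT retinas. *Clock* was 0.65 ± 0.12 higher in 5xFAD at 1 month on the log2 scale (adjusted p = 0.000494), and -0.32 ± 0.12 at 6 months did not pass (adjusted p = 0.107). With age it fell by 0.66 ± 0.12 in 5xFAD (adjusted p = 0.000326), while 0.31 ± 0.12 in WT did not pass (adjusted p = 0.102). The genotype difference changed by -0.97 ± 0.17 between the ages (adjusted p = 0.000174). These calls did not hold with the length and GC trend removed, where the values were 0.11 for genotype at 1 month (adjusted p = 0.478), -0.17 for age in 5xFAD (adjusted p = 0.181) and -0.19 for the change between ages (adjusted p = 0.286). All 3 were kept with each library left out in turn. The difference at 6 months passed without 5xFAD replicate 3 (-0.46, adjusted p = 0.02), and that of age in WT without WT replicate 1 of 1 month (0.43, adjusted p = 0.0465). Both also passed with no filter on low counts (adjusted p = 0.0204 and 0.0205).

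*Clock* levels differed between the libraries with longer and with shorter mean transcript length. The 5 libraries with mean lengths of 4013 to 4227 nt, which were the 3 of 5xFAD at 1 month and replicates 1 and 2 of WT at 6 months, had 166 to 226 CPM of *Clock*. The other 7, with mean lengths of 3579 to 3790 nt, had 105 to 148 CPM. *Dbp*, whose transcripts average 1649 nt and are the shortest of the 10, had 90.4 to 106 CPM in the 5 libraries and 84.2 to 195 CPM in the 7. The 5 libraries include all 3 of 5xFAD at 1 month, so mean length and group cannot be told apart there. Within those 3, mean lengths of 4195, 4227 and 4220 nt went with 226, 191 and 196 CPM of *Clock*. The part of mean length in these levels was not tested.

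**Figure D2:**
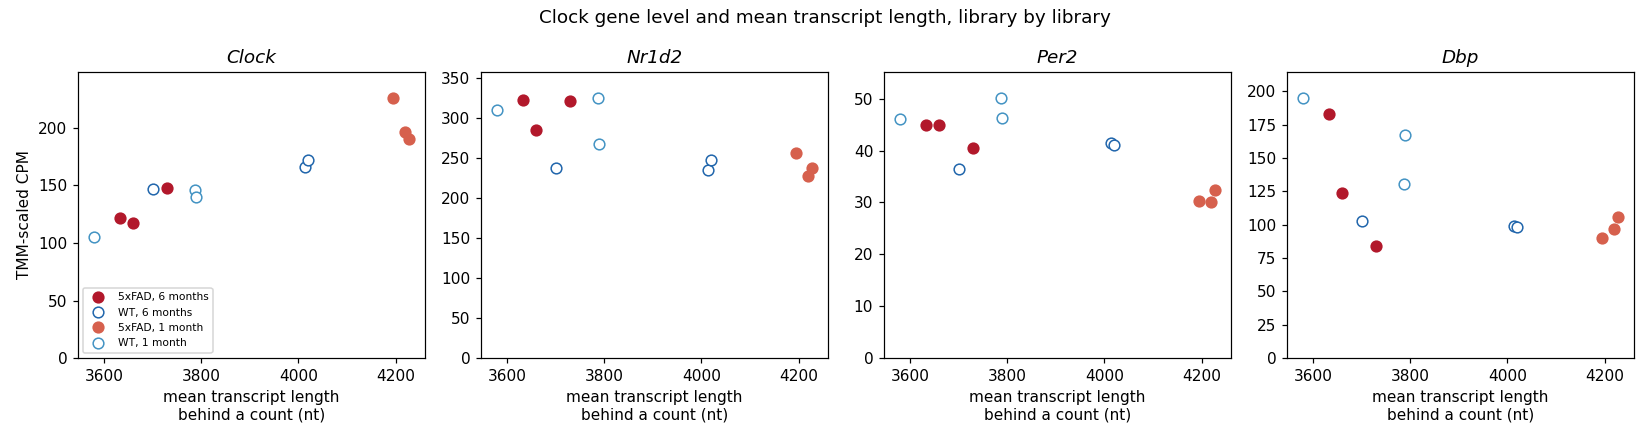
TMM-scaled CPM of 4 clock genes (vertical axes, from 0) against the mean annotated transcript length behind a count in each library (horizontal axes, nt). Filled points are 5xFAD and open points WT; *Clock* is highest in the libraries with the longest mean length, and *Per2* is lowest in the 3 libraries of 5xFAD at 1 month.

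The *Per* genes encode the repressors whose build-up and breakdown set the length of the cycle. *Per1* (chromosome 11, 69095217 to 69109960, plus strand), which light and hormones also induce acutely, had 67.1, 70.3 and 83.6 CPM in 5xFAD retinas at 6 months, all below the 121, 116 and 88.7 CPM in WT retinas. Its 1-month groups overlapped, at 83.5, 87.9 and 96.8 CPM in 5xFAD and 104, 74.9 and 82.7 CPM in WT. *Per1* was lower in 5xFAD at 6 months by a log2 change of -0.56 ± 0.13 (adjusted p = 0.0117), against 0.04 ± 0.13 at 1 month (adjusted p = 0.881), and the difference changed by -0.60 ± 0.19 between the ages (adjusted p = 0.0204). Neither age comparison was called, with -0.28 ± 0.13 in 5xFAD (adjusted p = 0.137) and 0.32 ± 0.13 in WT (adjusted p = 0.126). At 6 months the call was lost with the trend removed (-0.49, adjusted p = 0.178), without the libraries rich in ribosomal RNA (-0.38, adjusted p = 0.307), and when replicate 1 of 5xFAD (adjusted p = 0.0571), replicate 2 of 5xFAD (adjusted p = 0.0522), replicate 1 of WT (adjusted p = 0.0768) or replicate 2 of WT (adjusted p = 0.0656) was left out. The change between ages did not pass without 5xFAD replicate 3 of 1 month (adjusted p = 0.059), WT replicate 2 of 1 month (adjusted p = 0.065), WT replicate 1 of 6 months (adjusted p = 0.053) or the libraries rich in ribosomal RNA (adjusted p = 0.36), nor with the trend removed (-0.43, adjusted p = 0.354). The age difference passed in 5xFAD without 5xFAD replicate 3 of 6 months (-0.40, adjusted p = 0.0453), and in WT without WT replicate 1 of 1 month (0.50, adjusted p = 0.0272) or replicate 3 of 6 months (0.45, adjusted p = 0.0261), or with no filter on low counts (adjusted p = 0.0338).

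*Per2* (chromosome 1, 91415982 to 91459324, minus strand) was lower in 5xFAD at 1 month, a call kept under all 15 alternatives run. It had 44.9, 44.9 and 40.5 CPM in 5xFAD and 41.5, 41.2 and 36.5 CPM in WT retinas at 6 months, overlapping groups. At 1 month it had 30.2, 32.4 and 30.1 CPM in 5xFAD retinas, below each of the 50.2, 46.1 and 46.2 CPM in WT retinas and below every other library of the series. The log2 fold change of *Per2* at 1 month was -0.62 ± 0.12 (adjusted p = 0.00104), against 0.13 ± 0.12 at 6 months (adjusted p = 0.615). It rose with age in 5xFAD by 0.49 ± 0.12 (adjusted p = 0.00602), and -0.26 ± 0.12 in WT did not pass (adjusted p = 0.198). The genotype difference changed by 0.75 ± 0.17 (adjusted p = 0.00271). With the length and GC trend removed the difference at 1 month was -0.84 (adjusted p = 2.76e-05). The rise with age was not called without the libraries rich in ribosomal RNA (0.41, adjusted p = 0.116). Per length, the 1-month groups overlapped, at 17.2, 17 and 12.6 TPM in 5xFAD and 19.1, 15.8 and 17.7 TPM in WT. A noncoding *Per2* transcript of 231 nt had 0.493, 0.349 and 0 CPM in these 5xFAD libraries and 0 CPM in the other 9 libraries. TPM divides by transcript length, so a count on this short transcript adds more TPM than a count on the longer coding transcript. Replicate 3 of 5xFAD, with 0 CPM of the noncoding transcript, had 12.6 TPM, below each WT value. Replicates 1 and 2, with 17.2 and 17 TPM, lay within the WT range. The part of the noncoding transcript in the TPM overlap was not tested.

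*Per3* (chromosome 4, 151003652 to 151044665, minus strand) had 146, 148 and 124 CPM in 5xFAD and 135, 137 and 115 CPM in WT retinas at 6 months, overlapping. Its 138, 144 and 156 CPM in 5xFAD at 1 month each lay below the 170, 180 and 160 CPM in WT retinas. The genotype difference was 0.11 ± 0.10 at 6 months (adjusted p = 0.599) and -0.22 ± 0.10 at 1 month (adjusted p = 0.132), and neither was called. *Per3* fell with age in WT by 0.39 ± 0.10 (adjusted p = 0.013), against -0.06 ± 0.10 in 5xFAD (adjusted p = 0.692). Left-out libraries ended that call for WT replicate 2 at 1 month (adjusted p = 0.0714) and WT replicate 3 at 6 months (adjusted p = 0.0518). With the trend removed, the 1-month genotype difference of -0.43 passed (adjusted p = 0.00138), and so did its change between ages of 0.64 (adjusted p = 0.000405), which was 0.33 ± 0.14 before (adjusted p = 0.0927).

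The *Cry* genes encode the cryptochromes that hold the CLOCK and BMAL1 pair in check. *Cry1* (chromosome 10, 85131700 to 85185064, minus strand) had 49.6, 54 and 52 CPM in 5xFAD and 44.9, 46.5 and 44.7 CPM in WT retinas at 6 months, without overlap. Its 1-month groups overlapped, at 52.1, 52.3 and 46.5 CPM in 5xFAD and 55.4, 49.4 and 53.3 CPM in WT. Its group means lay within a ratio of 1.16 and none of its differences was called, the furthest from 0 being the 0.26 ± 0.16 change of the genotype difference (adjusted p = 0.24).

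*Cry2* (chromosome 2, 92403646 to 92434043, minus strand) had 98.2, 99.9 and 94.5 CPM in 5xFAD and 119, 112 and 98.2 CPM in WT retinas at 6 months. The 130, 126 and 139 CPM in 5xFAD retinas at 1 month were above each of the 110, 99.5 and 125 CPM in WT. *Cry2* fell with age in 5xFAD by 0.43 ± 0.10 (adjusted p = 0.004), a call that was kept with each library left out in turn and with the trend removed (-0.32, adjusted p = 0.0162). In WT it was -0.02 ± 0.10 (adjusted p = 0.925). The genotype difference was -0.17 ± 0.10 at 6 months (adjusted p = 0.373) and 0.24 ± 0.10 at 1 month (adjusted p = 0.11). Its change between the ages, -0.41 ± 0.15 (adjusted p = 0.043), did not pass with the trend removed (-0.35, adjusted p = 0.0556) and was lost with 7 of the 12 libraries left out 1 at a time: replicates 1 (adjusted p = 0.066), 2 (0.0542) and 3 (0.105) of 5xFAD at 1 month, WT replicate 2 at 1 month (0.121), 5xFAD replicate 2 at 6 months (0.0517), and WT replicates 1 (0.0958) and 2 (0.0674) at 6 months. It was also lost with library size alone as the scaling (adjusted p = 0.0523), with a replicate block (adjusted p = 0.0607) and without the libraries rich in ribosomal RNA (adjusted p = 0.16). Without WT replicate 3 at 1 month, the genotype difference of that age passed (0.35, adjusted p = 0.0312).

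The REV-ERB pair separated. *Nr1d1* (chromosome 11, 98767932 to 98775333, minus strand) had 220, 163 and 139 CPM in 5xFAD and 182, 194 and 179 CPM in WT retinas at 6 months. The 1-month values were 181, 201 and 203 CPM in 5xFAD and 173, 200 and 212 CPM in WT. The groups overlapped at both ages, and the 5xFAD libraries at 6 months spread on both sides of all WT libraries of that age. The genotype difference was -0.09 ± 0.12 at 6 months (adjusted p = 0.751) and -0.00 ± 0.12 at 1 month (adjusted p = 0.998). With age it was -0.16 ± 0.12 in 5xFAD (adjusted p = 0.367) and -0.08 ± 0.12 in WT (adjusted p = 0.775). Without the libraries rich in ribosomal RNA, which leaves 1 library of 5xFAD at 6 months, the age difference in 5xFAD was -0.47 (adjusted p = 0.0208), with that lone library assumed to vary like the other groups, and without 5xFAD replicate 1 of 6 months alone it was -0.38 (adjusted p = 0.019).

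*Nr1d2* (chromosome 14, 18204054 to 18239127, minus strand) differed at both ages, in opposite directions. At 6 months it had 322, 285 and 321 CPM in 5xFAD retinas, above each of the 236, 248 and 238 CPM in WT retinas. At 1 month it had 257, 237 and 228 CPM in 5xFAD retinas, below each of the 326, 311 and 268 CPM in WT. *Nr1d2* was 0.36 ± 0.09 higher in 5xFAD at 6 months (adjusted p = 0.0164) and lower at 1 month, by a log2 change of -0.33 ± 0.09 (adjusted p = 0.0127), and the difference changed by 0.69 ± 0.13 (adjusted p = 0.00034). With age it rose by 0.36 ± 0.09 in 5xFAD (adjusted p = 0.00518) and fell by 0.33 ± 0.09 in WT (adjusted p = 0.0216). With the length and GC trend removed these 5 values were 0.46 (adjusted p = 0.000489), -0.60 (adjusted p = 1.29e-05), 1.06 (adjusted p = 2.87e-07), 0.57 (adjusted p = 2.21e-05) and -0.49 (adjusted p = 0.000125). Over all genes 1035 were called at 6 months, and 276 to 1687 with single libraries left out. At 1 month 3178 were called, and 1893 to 2868 with single libraries left out. The *Nr1d2* calls at single ages also depended on which libraries were in the fit. At 6 months the call was lost without replicate 1 of 5xFAD (adjusted p = 0.0945), replicate 1 of WT (adjusted p = 0.116), replicate 2 of WT (adjusted p = 0.0882) or the libraries rich in ribosomal RNA (0.41, adjusted p = 0.0769). The 1-month call was lost without replicate 2 of 5xFAD (adjusted p = 0.0589), replicate 3 of 5xFAD (adjusted p = 0.0728), replicate 1 of WT (adjusted p = 0.0974) or replicate 2 of WT (adjusted p = 0.0564). The fall with age in WT was lost without WT replicate 1 (adjusted p = 0.16) or 2 (adjusted p = 0.0916) of 1 month, WT replicate 1 (adjusted p = 0.143) or 2 (adjusted p = 0.104) of 6 months, or the libraries rich in ribosomal RNA (adjusted p = 0.0574). The rise with age in 5xFAD and the change between ages were kept under every alternative run. The fit that leaves 1 library of 5xFAD at 6 months is left out of this statement.

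*Dbp* (chromosome 7, 45705088 to 45710203, plus strand), a PAR bZIP factor and a direct output of the loop, had the widest ratio between group means of the 10. It had 183, 123 and 84.2 CPM in 5xFAD and 99.2, 98.4 and 103 CPM in WT retinas at 6 months. Values of 90.4, 106 and 96.5 CPM in 5xFAD retinas at 1 month lay below each of the 130, 195 and 167 CPM in WT retinas. *Dbp* was lower in 5xFAD at 1 month, by a log2 change of -0.75 ± 0.24 (adjusted p = 0.0483), and 0.38 ± 0.23 at 6 months did not pass (adjusted p = 0.413). Age gave 0.41 ± 0.24 in 5xFAD (adjusted p = 0.248) and -0.71 ± 0.23 in WT (adjusted p = 0.0826), and the genotype difference changed by 1.13 ± 0.33 (adjusted p = 0.0303). The 1-month call was lost with the trend removed (-0.45, adjusted p = 0.138), without replicate 1 (adjusted p = 0.137), 2 (adjusted p = 0.0857) or 3 (adjusted p = 0.123) of 5xFAD, and without replicate 2 (adjusted p = 0.169) or 3 (adjusted p = 0.105) of WT. It was also lost with DESeq2's size factors (adjusted p = 0.0532) and with a replicate block (adjusted p = 0.0691). The change between ages was lost with the trend removed (0.72, adjusted p = 0.0703), without the libraries rich in ribosomal RNA (0.36, adjusted p = 0.189), and with 8 of the 12 libraries left out 1 at a time, with adjusted p from 0.0565 to 0.0875; it was kept without 5xFAD replicate 2 of 1 month, WT replicate 1 of 1 month, or 5xFAD replicate 1 or 3 of 6 months. The age difference in WT passed under 4 alternatives: DESeq2's Wald test (adjusted p = 0.042), no filter on low counts (adjusted p = 0.00164), a fit of the 6 libraries compared (adjusted p = 0.00425) and leaving out the libraries rich in ribosomal RNA (-0.56, adjusted p = 0.00231). That in 5xFAD passed without 5xFAD replicate 3 of 6 months (0.63, adjusted p = 0.00627).

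Within the 5xFAD group at 6 months, *Dbp* and *Nr1d1* ran in the same order as nuclear ribosomal RNA, which took 1.11, 0.446 and 0.0525% of the counts in replicates 1, 2 and 3. Leaving out the first and second of these libraries turned *Dbp* to -0.25 at 6 months (adjusted p = 0.456), and leaving out the third instead gave 0.59 (adjusted p = 0.0215). The part of ribosomal RNA in these values was not tested. Exons of *Dbp* overlap those of *Sphk2* on the other strand over 539 of 2993 bases, and *Nr1d1* overlaps *Thra* over 263 of 3077, and the library kit does not keep strand. *Sphk2* averaged 13.7 ± 2.05 CPM in 5xFAD and 18.5 ± 2.02 CPM in WT at 6 months. At the younger age these were 14.8 ± 2.89 CPM in 5xFAD and 15.1 ± 2.67 CPM in WT, and neither *Sphk2* nor *Thra* was called in any comparison.

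**Figure D3:**
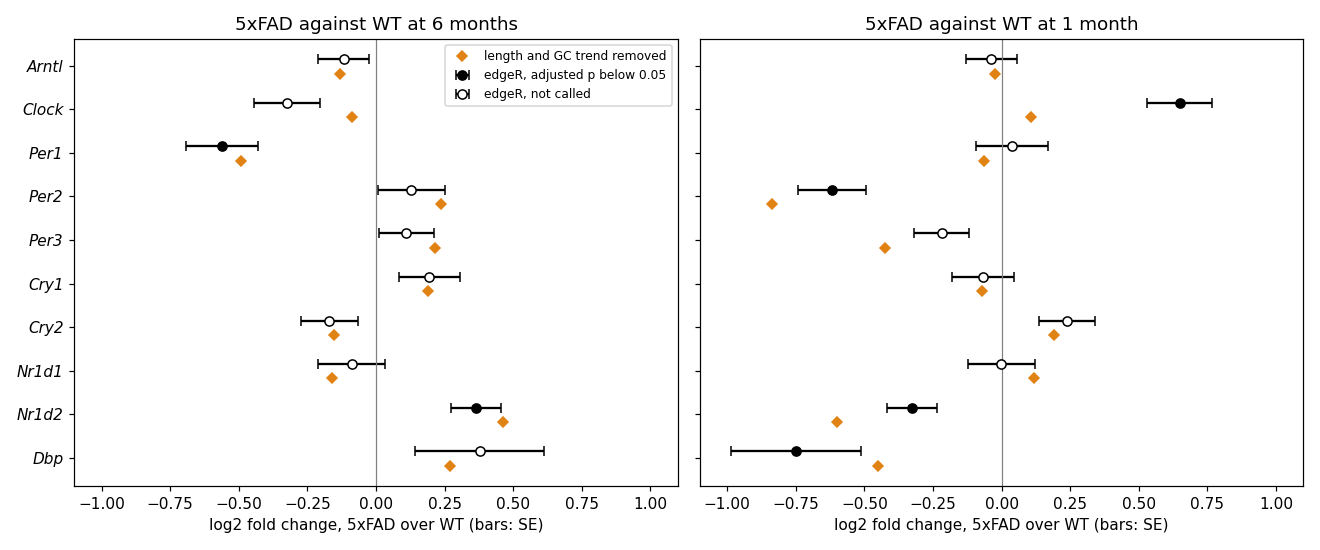
Log2 fold change of each clock gene between 5xFAD and WT at 6 months (left) and at 1 month (right), with SE from edgeR; filled points passed an adjusted p of 0.05. Diamonds are the values with the length and GC trend removed: *Clock* at 1 month moves to 0.11, while *Per2* and *Nr1d2* move further from 0.

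Phase could be described but not assigned. As a summary of antiphase, the log2 level of *Arntl* minus the mean log2 level of *Nr1d1* and *Dbp* was taken in each library, so a higher value means relatively more *Arntl*. It was -0.92, -0.34 and 0.03 in 5xFAD and -0.13, -0.23 and -0.23 in WT retinas at 6 months. At 1 month the values stood at -0.36, -0.71 and -0.44 in 5xFAD and -0.54, -1.004 and -0.94 in WT retinas. Group means were -0.41 ± 0.48 in 5xFAD and -0.20 ± 0.06 in WT at 6 months, and -0.50 ± 0.18 in 5xFAD and -0.83 ± 0.25 in WT at 1 month (SD, n = 3 each, no test). The 3 WT libraries of 6 months lay close together and above all WT libraries of 1 month, and the 5xFAD libraries of 6 months covered nearly the range of the series. A wider version set *Arntl*, *Clock* and *Cry1* against *Nr1d1*, *Nr1d2*, *Dbp* and the 3 *Per* genes. It gave -0.41 ± 0.22 in 5xFAD and -0.28 ± 0.03 in WT at 6 months, and -0.15 ± 0.12 in 5xFAD and -0.64 ± 0.15 in WT at 1 month. The highest group mean was that of WT at 6 months in the first version and of 5xFAD at 1 month in the wider one. Neither version had the length and GC trend removed, and the part of mean transcript length in them was not tested.

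The clock genes did not share 1 pattern over the 12 libraries. Likeness was taken as the root mean square difference of log2 CPM standardised per gene, where 0 is identical. The nearest pair was *Clock* and *Cry2* at 0.654, followed by *Per2* and *Nr1d2* at 0.743 and *Per3* and *Dbp* at 0.768. The farthest was *Clock* and *Per2* at 1.82. *Per2* and *Per3* reached their highest group mean in WT at 1 month, as did *Cry1*, *Nr1d1* and *Dbp*, *Clock* and *Cry2* in 5xFAD at 1 month, *Arntl* and *Per1* in WT at 6 months, and *Nr1d2* in 5xFAD at 6 months. The ratio of the highest to the lowest group mean ran from 1.12 for *Nr1d1* to 1.68 for *Dbp*.

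Transcripts of *Per3* and *Arntl* were called in comparisons where the gene was not. Of the clock genes' transcripts, 32 were tested in a fit over 45326 transcripts, with counts that RSEM divides among overlapping isoforms. Between 5xFAD and WT none was called at 6 months, where 0.488% of all transcripts were and 3 of the 32 had an unadjusted p below 0.05 with edgeR, and 2 were called at 1 month, where 2.52% of all transcripts were. With age 3 were called in 5xFAD (3.12% of all transcripts) and 1 in WT (0.916%), and the genotype difference changed between ages for 6 (6.05%). These calls depended on which libraries were in the fit, and the share called over all transcripts under the same settings is not given here. For age in 5xFAD no clock transcript was called with a replicate block, without replicate 2 or 3 of 1 month, or without replicate 2 of 6 months. At 1 month none was called without 5xFAD replicate 1.

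*Per3-204*, a processed transcript of 3663 nt and 7 exons over the 3′ end of the gene (chromosome 4, 151003786 to 151016145), was called at 1 month where the gene was not. It had 73.4, 53.5 and 56.4 CPM in 5xFAD and 34.6, 32.8 and 60.6 CPM in WT retinas at 6 months, overlapping. The 1-month libraries had 29.2, 25.8 and 34.2 CPM in 5xFAD, below each of the 86.7, 89.4 and 75.7 CPM in WT. The log2 difference at 1 month was -1.50 ± 0.24 (adjusted p = 0.0141), the age difference in 5xFAD was 1.04 ± 0.24 (adjusted p = 0.0457), and the change between ages was 2.01 ± 0.33 (adjusted p = 0.0079). It made up 44.5 ± 7.48% of *Per3* counts in 5xFAD and 33.2 ± 15.6% in WT at 6 months. In 1-month retinas these were 20.1 ± 1.91% in 5xFAD and 49.4 ± 1.28% in WT. The full-length coding transcript *Per3-201* of 5999 nt had 57.2, 85.6 and 62.6 CPM in 5xFAD and 86.9, 88 and 49.5 CPM in WT retinas at 6 months. At 1 month the values stood at 89.7, 101 and 99.3 CPM in 5xFAD and 75.1, 82.6 and 73.6 CPM in WT. *Per3-201* was called in none of the comparisons. The retained-intron transcript *Per3-205* of 4909 nt averaged 7.7 ± 2.67 CPM in 5xFAD and 13.5 ± 5.17 CPM in WT at 6 months. The 1-month values were 20.6 ± 3.72 CPM in 5xFAD and 7.44 ± 2.52 CPM in WT, and the genotype difference of *Per3-205* changed by -2.28 ± 0.58 (adjusted p = 0.0477).

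**Figure D4:**
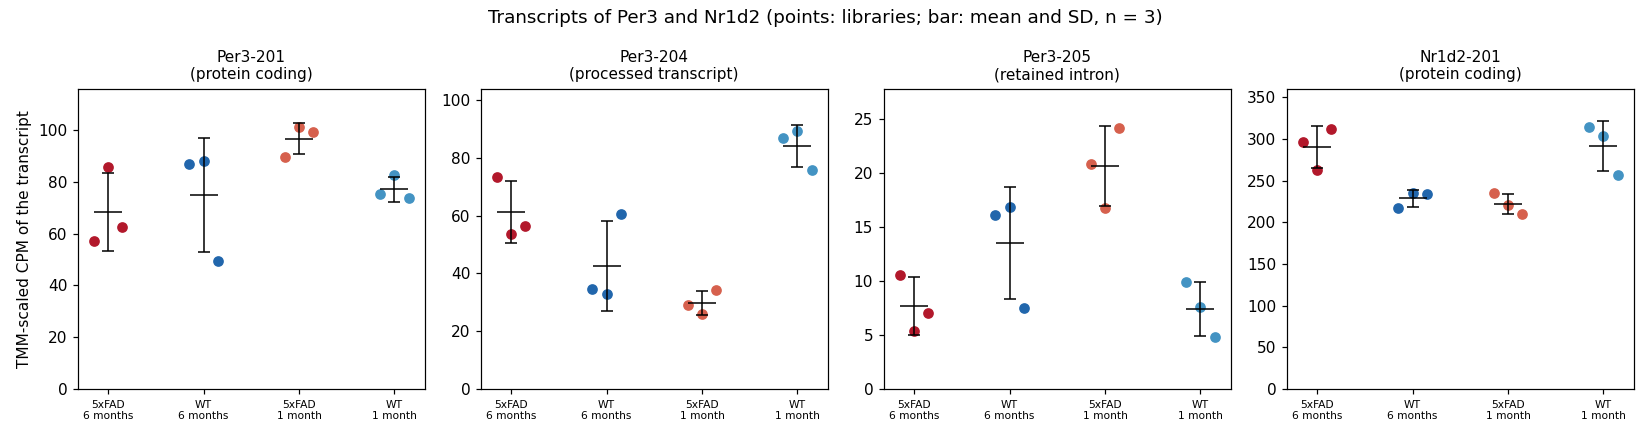
TMM-scaled CPM (vertical axes, from 0) of 3 *Per3* transcripts and the main *Nr1d2* transcript in the 3 libraries of each group, with mean and SD. *Per3-204* is lowest in 5xFAD at 1 month, at 25.8 to 34.2 CPM, where *Per3-205* is highest.

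The same split by mean transcript length appears here. The 5 libraries with 4013 to 4227 nt had 25.8 to 34.6 CPM of *Per3-204*, and the other 7 had 53.5 to 89.4 CPM. Retained-intron transcripts made up 11.7 to 15.3% of *Per3* counts in the 5 and 3.74 to 7.53% in the 7, and 6.44 to 10.1% of *Nr1d2* counts in the 5 and 2.41 to 5.43% in the 7. By group, the *Per3* share was 5.85 ± 1.93% in 5xFAD and 10.4 ± 3.23% in WT at 6 months (exact permutation test, 2-sided p = 0.2). At the younger age these were 14 ± 2% in 5xFAD and 4.99 ± 0.737% in WT (exact p = 0.1, the smallest that 3 against 3 allows). The part of library composition in these differences was not tested.

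Among the other transcripts, the coding *Per2-201* followed the gene, with 43.3, 43.8 and 41.5 CPM in 5xFAD and 42.2, 42.4 and 37.6 CPM in WT at 6 months. In 1-month retinas these were 30.2, 32 and 30.7 CPM in 5xFAD and 50.8, 46.1 and 45.7 CPM in WT. It was called at 1 month (-0.62 ± 0.11, adjusted p = 0.017), with age in 5xFAD (adjusted p = 0.0415) and for the change between ages (adjusted p = 0.0236). *Nr1d2-201*, which holds 93.9% of *Nr1d2* counts, was called only for the change between ages (0.74 ± 0.13, adjusted p = 0.0108). *Arntl-206*, a coding transcript with a later start than *Arntl-201*, had 41.9, 32.8 and 47.8 CPM in 5xFAD and 58, 69.1 and 52.7 CPM in WT at 6 months. At 1 month the values stood at 43.7, 39.3 and 52.5 CPM in 5xFAD and 27.3, 23.5 and 33.5 CPM in WT. It rose with age in WT by 1.09 ± 0.19 (adjusted p = 0.034), and its genotype difference changed by -1.24 ± 0.27 (adjusted p = 0.0264). The age call in WT was lost with a replicate block and without WT replicate 1 or 2 of either age, where no clock transcript was called. *Cry2-202* was at 0 in all 3 libraries of 5xFAD at 6 months and at 2.89, 7.97 and 5.7 CPM in 5xFAD at 1 month (adjusted p = 0.0175), and it was also called for the change between ages. The other genes were led by 1 coding transcript each, *Cry1-201* with 99.5% of counts, *Nr1d1-201* with 98.3%, *Clock-205* with 83.9%, *Per1-201* with 73% and *Dbp-201* with 63.8%, and no transcript of these 5 genes was called.

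The partners of the loop include *Rora* and *Rorb*, activators that share sites with the REV-ERB receptors, the DBP relatives *Tef* and *Hlf*, and the repressors *Bhlhe40*, *Bhlhe41*, *Nfil3* and *Ciart*. Of 11 tested, *Rorb* was higher (0.49, adjusted p = 0.00684) and *Rora* lower in 5xFAD at 6 months (median log2 fold change -0.20), and 2 were higher and 1 lower at 1 month (median -0.17). *Rora* averaged 167 ± 32.7 CPM in 5xFAD and 229 ± 20.6 CPM in WT at 6 months. The 1-month values were 328 ± 17.6 CPM in 5xFAD and 172 ± 22.5 CPM in WT. Its log2 difference was -0.45 ± 0.12 at 6 months (adjusted p = 0.0231) and 0.93 ± 0.12 at 1 month (adjusted p = 1.44e-05), and with the trend removed -0.20 (adjusted p = 0.138) and 0.35 (adjusted p = 0.0056). *Hlf* averaged 164 ± 2.37 CPM in 5xFAD and 189 ± 14.8 CPM in WT at 6 months. At the younger age these were 214 ± 7.89 CPM in 5xFAD and 152 ± 5.99 CPM in WT, a difference called at 1 month (0.49 ± 0.09, adjusted p = 0.00035) and not with the trend removed (0.19, adjusted p = 0.081). *Ciart*, a repressor of the CLOCK and BMAL1 pair, averaged 12.7 ± 5.3 CPM in 5xFAD and 11.5 ± 0.608 CPM in WT at 6 months. In 1-month retinas these were 9.68 ± 3.49 CPM in 5xFAD and 21 ± 3.07 CPM in WT, and 5xFAD was lower (-1.11 ± 0.28, adjusted p = 0.00685). The trend-removed counts were 2 higher and 0 lower at 6 months and 1 higher and 4 lower at 1 month. With age, 0 were higher and 2 lower in 5xFAD, *Rora* (-0.97, adjusted p = 5.68e-06) and *Hlf* (-0.38, adjusted p = 0.00273). In WT 2 were higher and 4 lower, among them *Rorb* (-0.78, adjusted p = 7.23e-05) and *Tef* (-0.50, adjusted p = 0.000988). The genotype difference changed upward for 3, *Rorb*, *Ciart* and *Tef*, and downward for *Rora* (-1.38, adjusted p = 3.31e-06) and *Hlf* (-0.70, adjusted p = 0.000212). With the trend removed *Rora* was -0.44 for age in 5xFAD (adjusted p = 0.000589) and -0.55 for the change (adjusted p = 0.00128). The *Hlf* calls were lost, at -0.11 for age in 5xFAD (adjusted p = 0.329) and -0.26 for the change (adjusted p = 0.065), and so was the *Ciart* change (0.92, adjusted p = 0.1). *Rorb* moved further from 0, to 0.73 at 6 months (adjusted p = 1.06e-06), -0.59 at 1 month (adjusted p = 9.31e-06) and 1.318 for the change (adjusted p = 1.5e-08).

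Among the enzymes and cofactors that act on clock proteins, those called were lower in 5xFAD at 6 months and, but for *Hdac3*, higher at 1 month. Of 15 tested, 0 were higher and 5 lower in 5xFAD at 6 months (median -0.25), and 4 were higher and 1 lower at 1 month (median 0.20). *Sfpq*, a splicing factor that also joins the PER complex, averaged 251 ± 34.1 CPM in 5xFAD and 359 ± 36 CPM in WT at 6 months (-0.51, adjusted p = 0.00299). At 1 month the values stood at 371 ± 4.53 CPM in 5xFAD and 226 ± 16.7 CPM in WT (0.72, adjusted p = 3.03e-05). *Btrc*, the ubiquitin ligase subunit that marks PER proteins for breakdown, averaged 96.4 ± 12.7 CPM in 5xFAD and 154 ± 36.5 CPM in WT at 6 months (-0.67, adjusted p = 0.00643). The 1-month values were 201 ± 2.49 CPM in 5xFAD and 100 ± 12.1 CPM in WT (1.00, adjusted p = 5.77e-05). *Gsk3b*, a kinase of REV-ERB alpha and other clock proteins, averaged 150 ± 9.62 CPM in 5xFAD and 187 ± 6.89 CPM in WT at 6 months. At the younger age these were 220 ± 5.82 CPM in 5xFAD and 134 ± 9.21 CPM in WT, and 5xFAD was 0.72 ± 0.09 higher (adjusted p = 1.09e-05). *Ncor1*, the co-repressor of the REV-ERB receptors, averaged 191 ± 8.54 CPM in 5xFAD and 261 ± 44.3 CPM in WT at 6 months. In 1-month retinas these were 316 ± 16.9 CPM in 5xFAD and 195 ± 17.3 CPM in WT, and 5xFAD was 0.70 ± 0.11 higher (adjusted p = 8.6e-05). *Usp2*, a deubiquitinase, averaged 108 ± 2.89 CPM in 5xFAD and 154 ± 9.07 CPM in WT at 6 months, where it was lower (-0.52 ± 0.10, adjusted p = 0.00222). With age 1 was higher and 5 lower in 5xFAD, and 5 higher and 0 lower in WT, and the genotype difference changed upward for 0 and downward for 6. With the trend removed, *Sfpq* stood at -0.53 (adjusted p = 0.000131) at 6 months and 0.71 (adjusted p = 1.55e-06) at 1 month, and *Btrc* at -0.63 (adjusted p = 0.00853) and 0.91 (adjusted p = 0.000328). Other members became smaller. *Gsk3b* went to -0.13 at 6 months, no longer called (adjusted p = 0.313), and to 0.30 at 1 month (adjusted p = 0.00665), and its age difference in 5xFAD to -0.15 (adjusted p = 0.176). *Ncor1* went to -0.28 at 6 months (adjusted p = 0.0285) and 0.36 at 1 month (adjusted p = 0.00298), *Usp2* stood at -0.52 at 6 months (adjusted p = 0.000288), and *Hdac3* at 1 month was not called (-0.24, adjusted p = 0.168). The counts with the trend removed were 0 higher and 5 lower at 6 months, 5 higher and 1 lower at 1 month, and 2 upward and 7 downward for the change between ages.

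Genes under clock, light or hormone control are set beside the share called over all genes tested. That share was 6.38% at 6 months and 19.6% at 1 month between 5xFAD and WT. It was 23.2% for age in 5xFAD, 10.5% for age in WT and 25.0% for the change between ages. These shares also stand beside the loop partners and cofactors above. Of 9 clock-controlled output genes tested, 0 were called at 6 months between 5xFAD and WT (edgeR, 3 with an unadjusted p below 0.05, DESeq2 2), and 2 were higher at 1 month, *Adcy1* (0.67 ± 0.09, adjusted p = 1.84e-05), the adenylyl cyclase of photoreceptor rhythm, and *Klf9* (0.47, adjusted p = 0.0147). With the trend removed these were 0.17 (adjusted p = 0.153) and 0.26 (adjusted p = 0.11). Age gave *Drd4* higher and *Adcy1* lower in 5xFAD and 2 higher in WT, and the genotype difference changed upward for *Drd4* and downward for *Adcy1* and *Klf9*. The *Adcy1* calls were lost with the trend removed, at -0.05 for age in 5xFAD (adjusted p = 0.745), 0.13 for age in WT (adjusted p = 0.312) and -0.18 for the change between ages (adjusted p = 0.281). *Drd4* was then 0.23 for age in 5xFAD (adjusted p = 0.0588) and 0.40 for the change (adjusted p = 0.0159), and *Klf9* -0.51 for the change (adjusted p = 0.0164). *Nampt*, the rate-limiting enzyme of NAD salvage, was called lower at 1 month with the trend removed (-0.50, adjusted p = 0.00139) and not before, at -0.20. None of 10 immediate early genes, which answer light and handling within an hour or so, was called in any comparison by edgeR or DESeq2, with 0 or 1 having an unadjusted p below 0.05. The nearest were *Junb* at 6 months (-0.52, adjusted p = 0.233) and *Nr4a1* at 1 month (-0.54, adjusted p = 0.0622). Of 7 glucocorticoid-induced genes tested, 0 were called at 6 months between genotypes (edgeR, 0 with an unadjusted p below 0.05, DESeq2 0) and 1, the metallothionein *Mt2*, was lower at 1 month (-1.27 ± 0.29, adjusted p = 0.00321). With age 2 were higher in 5xFAD and 1 in WT, the kinase gene *Sgk1* in both (0.81, adjusted p = 5.56e-06, and 0.84, adjusted p = 1.36e-05), and the genotype difference changed upward for *Mt2* and downward for *Zbtb16*. With the trend removed *Mt2* was -0.84 at 1 month (adjusted p = 0.036), and neither change between ages was called (*Mt2*, adjusted p = 0.162, and *Zbtb16*, adjusted p = 0.0867).

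Markers checked the tissue label and showed what else moved with the groups. Rod genes summed to 49800 to 53900 CPM in 5xFAD and 41100 to 44700 CPM in WT retinas at 6 months. At 1 month the values stood at 50200 to 54100 CPM in 5xFAD and 45700 to 49400 CPM in WT. Cone genes summed to 1200 to 1350 CPM in 5xFAD and 900 to 990 CPM in WT at 6 months. The 1-month values were 846 to 1010 CPM in 5xFAD and 1080 to 1310 CPM in WT, the direction of *Nr1d2* at each age; 3 of the 4 cone markers were called higher at 6 months and 2 of the 4, *Arr3* (-0.96, adjusted p = 6.41e-06) and *Opn1mw* (-0.42, adjusted p = 0.021), lower at 1 month. The short-wave opsin *Opn1sw* stood at 0.13 at 1 month (adjusted p = 0.315). With the trend removed *Arr3* was lower (-0.74, adjusted p = 6.05e-05), *Opn1sw* higher (0.25, adjusted p = 0.0215), and *Opn1mw* (adjusted p = 0.47) and *Gnat2* (adjusted p = 0.588) were not called at that age. In bulk retina, fewer cells of a type and less RNA per cell cannot be told apart. The 10 markers of pigment epithelium and choroid, tissue next to the retina with a clock of its own, summed to 50.7 to 82.6 CPM in 5xFAD and 51.9 to 107 CPM in WT at 6 months. At the younger age these were 22 to 38.1 CPM in 5xFAD and 71.3 to 145 CPM in WT, with *Mlana* at 0 in each 5xFAD group; 5 of the 8 tested were lower in 5xFAD at 1 month. Lens crystallin and filament genes summed to 0.426 to 1.05 CPM in 5xFAD and 0.202 to 0.299 CPM in WT at 6 months. In 1-month retinas these were 5.12 to 50.1 CPM in 5xFAD and 0 to 0.629 CPM in WT. The 5 markers of pineal gland and brain outside the eye summed to at most 25.3 CPM in any library, most of it *Vip*, which retinal amacrine cells also express, and *Asmt*, the melatonin-forming enzyme of the pineal gland, was at 0 in all 12 libraries. Endothelial markers summed to 143 to 152 CPM in 5xFAD and 192 to 229 CPM in WT at 6 months, and to 256 to 289 CPM in 5xFAD and 167 to 198 CPM in WT at 1 month. Bipolar cell markers summed to 867 to 882 CPM in 5xFAD and 895 to 1110 CPM in WT at 6 months, and to 1090 to 1160 CPM in 5xFAD and 885 to 1000 CPM in WT at 1 month. Both sums lay lower in 5xFAD at 6 months and higher at 1 month without overlap. *Clock* likewise lay higher in 5xFAD without overlap at 1 month. Of 4 bipolar markers, 1 was called lower at 6 months and 2 higher at 1 month, against 1 and 0 with the trend removed. *Grm6* leaned the other way within its spread, averaging 170 CPM in 5xFAD and 165 CPM in WT at 6 months. Its 1-month means were 172 CPM in 5xFAD and 177 CPM in WT. Of 4 endothelial markers, 1 was called lower at 6 months and 2 higher at 1 month, against 1 and 1 with the trend removed. Muller glia markers summed to 2620 to 2760 CPM in 5xFAD and 2850 to 3150 CPM in WT at 6 months, and overlapped at 1 month. Most of the sum was *Glul*, at 2040 CPM in 5xFAD and 2310 CPM in WT at 6 months. *Slc1a3* and *Aqp4* also averaged lower in 5xFAD there, while *Rlbp1* was higher, at 404 against 350 CPM. Of the 4, 0 were called at 6 months, and 1 was higher and 1 lower at 1 month. *Rlbp1* then averaged 292 CPM in 5xFAD and 404 CPM in WT, and *Aqp4* 128 and 80 CPM. Microglial markers summed to 19.2 to 21.2 CPM in 5xFAD and 18.8 to 20.2 CPM in WT at 6 months, and to 13.5 to 16.1 CPM in 5xFAD and 19.6 to 24.9 CPM in WT at 1 month. The part of these cells and tissues in the clock gene differences was not tested.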

How the data were processed

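Whole-retina poly-A RNA of 12 libraries was analysed, 3 for each of 4 groups set by genotype and age in the labels. The authors deposited expected counts per gene and per transcript. Per the submitters' processing notes, the tools were Trim Galore 0.6.6, STAR 2.7.1a, RSEM 1.3.3 and DESeq2 1.32.0 on GRCm38.p6; the annotation is not given in the sources used here. Per the labels' protocols the kit was TruSeq v2, which does not keep strand. The deposited expected counts were rounded to whole numbers. Names, positions and lengths came from GENCODE M21, which held 55227 of 55487 genes and 141469 of 142699 transcripts, and promoters from RefSeq. All 12 libraries entered 1 fit with 4 group means and 8 residual degrees of freedom (edgeR 4.0.16 in R 4.3.3, TMM, filterByExpr, robust quasi-likelihood), tested on simulated data. DESeq2 1.42.0 was an alternative. The length and GC trend was removed per library by splines with 4 degrees of freedom on each. Likeness used genes averaging at least 5 CPM. All 10 clock genes were reported; from each related list, at most 4 called genes per comparison by smallest p, or the 2 nearest where none passed, were named. One gene of the loop partners list is not reported here, and the list's counts and medians leave it out. The genes, lists and markers were chosen with earlier results of these data known. Replicates differed by more than sampling noise (chi-square per degree of freedom 4.13 to 28.4), so each counted once.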

Additional observations from a re-analysis of the deposited data

Results flagged for a closer look

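The genotype difference, 5xFAD over WT, differed between 6 months and 1 month for 6 clock genes by a test of the difference itself, the interaction of genotype and age in edgeR's quasi-likelihood fit over 12 libraries. The change on the log2 scale, 6 months minus 1 month, was -0.97 for *Clock*, -0.60 for *Per1*, 0.75 for *Per2*, -0.41 for *Cry2*, 0.69 for *Nr1d2* and 1.13 for *Dbp*, with adjusted p of 0.000174, 0.0204, 0.00271, 0.043, 0.00034 and 0.0303. Of all genes tested, 25.0% passed the same test. With the length and GC trend removed, *Per2* (1.08, adjusted p = 3.44e-05) and *Nr1d2* (1.06, adjusted p = 2.87e-07) passed and the other 4 did not. No explanation was weighed.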

How the results depend on the processing

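The number of clock genes called at 6 months between 5xFAD and WT was 2, and became 1 with the length and GC trend removed and 0 to 4 with single libraries left out. Leaving out the 3 libraries richest in ribosomal RNA was an alternative chosen after seeing the data. It leaves 1 library of 5xFAD at 6 months, so no count is given for comparisons that use this group. At 1 month it was 4, and 2 to 4 with single libraries left out. With age in WT it was 2, became 4 with DESeq2's Wald test and 5 with no filter on low counts, and ran from 0 to 3 with single libraries left out. With age in 5xFAD it was 4 and kept within 3 to 6. For the change between ages it was 6, became 3 with the trend removed, and ran from 3 to 6 with single libraries left out. Called transcripts at 1 month were 2, became 1 with no filter and ran from 0 to 3 with single libraries left out. They ran from 0 to 2 for age in WT, from 0 to 2 for age in 5xFAD and from 2 to 6 for the change between ages. Calls over all genes moved too with single libraries left out. They ran from 276 to 1687 at 6 months (1035 with none left out) and from 1893 to 2868 at 1 month (3178). For age they ran from 780 to 1855 in WT (1705) and from 2550 to 4014 in 5xFAD (3772). For the change between ages they ran from 2905 to 4556 (4054). The cause was not tested.

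Replicate numbers showed no sign of pairing the libraries, which does not exclude a weak pairing. Deviations from the group means correlated at -0.119 to 0.0857 over 18 same-numbered pairs. Over 36 differently numbered pairs the range was -0.104 to 0.15. With a replicate block, 3 clock genes were called at 1 month (*Dbp* lost, adjusted p = 0.0691) and 5 for the change between ages, and called transcripts became 1 at 1 month, 0 for age in WT, 0 for age in 5xFAD and 3 for the change between ages.

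The values whose sign turned were not called in the fit reported. *Nr1d1* at 1 month was 0.017 with a filter of 1 CPM in 3 libraries, 0.015 in a fit of the 6 libraries compared, 0.016 with DESeq2's test or size factors, 0.117 with the trend removed, 0.012 with no filter, 0.012 without the ribosomal RNA libraries and -0.057 to 0.088 with single libraries left out. With single libraries left out *Nr1d1* ran from -0.315 to 0.02 at 6 months and from -0.338 to 0 for the change between ages. For age in WT it was 0.049 with the trend removed and 0.026 without WT replicate 3 of 1 month. *Per1* at 1 month was -0.065 with the trend removed, -0.068 without the ribosomal RNA libraries, and -0.06 to 0.204 with single libraries left out. *Cry2* for age in WT was 0.001 with the 1 CPM filter, 0.01 with no filter, 0.027 with the trend removed, and -0.096 to 0.105 with single libraries left out. With single libraries left out *Arntl* at 1 month ran from -0.083 to 0.022, and *Cry1* for age in 5xFAD from -0.008 to 0.073. *Per3* for age in 5xFAD was 0.188 with the trend removed. Without the ribosomal RNA libraries *Dbp* was -0.253 at 6 months and -0.2 for age in 5xFAD, and *Per3* was -0.06 at 6 months. The *Arntl* balance was then 0.025 in the 1 library left of 5xFAD at 6 months. The wider balance was -0.149 in 5xFAD at 1 month and -0.284 in WT at 6 months.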

Other observations

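Over the 12 libraries, the 5 genes with the profile nearest to that of *Dbp*, among 11957 genes averaging at least 5 CPM, were *Mpnd* at a root mean square difference of 0.298, *Spsb3* at 0.312, *Cox5b* at 0.314, *Cluh* at 0.323 and *Cpsf1* at 0.326. *Cpsf1*, a subunit of the mRNA cleavage and polyadenylation complex, averaged 119 ± 19.6 CPM in 5xFAD and 101 ± 5.34 CPM in WT at 6 months, and 92.5 ± 2.19 CPM in 5xFAD and 135 ± 11.9 CPM in WT at 1 month (SD, n = 3 each). The clock gene nearest to *Dbp* was *Per3* at 0.768. Nearest to *Arntl* were *Lima1* at 0.334, *Hif3a* at 0.378, *Zfp36l2* at 0.411, *Aaed1* at 0.437 and *Bbs7* at 0.438. *Hif3a*, a hypoxia-inducible factor subunit, averaged 10.1 ± 0.0914 CPM in 5xFAD and 14.4 ± 1.48 CPM in WT at 6 months, and 5.19 ± 2.04 CPM in 5xFAD and 5.5 ± 1.75 CPM in WT at 1 month. These are descriptions over points that share library depth and composition.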
